A study of Mus musculus with 107 samples.

Results

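The fragile X family of RNA-binding proteins has 3 genes in mouse, Fmr1, Fxr1 and Fxr2, and all 3 were among the 21564 gene symbols counted in single eggs of 5 groups. The family was chosen by what the same eggs showed: Fxr2 was picked for standing among the larger differences in mutant and in activated eggs against wildtype eggs, and Fmr1 and Fxr1 were taken as its paralogs. Those 2 contrasts therefore describe the members here and carry no test of them. For Fxr2 the difference between them, mutant over activated eggs, is a description too. So is the difference of its mutant fold between batches. The proteins FMRP, FXR1P and FXR2P bind RNA through KH domains and sit on ribosomes and in cytoplasmic granules. FMRP is best known as a repressor of translation in neurons, and loss of FMR1 causes fragile X syndrome in people. Growing oocytes store mRNA whose translation and removal are timed through the meiotic divisions, when there is almost no transcription, so RNA-binding proteins hold much of the control in these cells.

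The study read polyadenylated RNA of single eggs with Smart-seq2. Mutant eggs came from mos-/- females and formed 3 groups that the labels name M1 (22 eggs), M2 (18 eggs) and M3 (21 eggs) without defining them. Mos is the kinase that switches on the MAPK pathway in oocytes and holds a mature egg at metaphase of the second division. The activated group held 17 wildtype eggs placed for 2 h in 10 mM strontium chloride in calcium-free CZB medium, 15 to 16 h after breakdown of the germinal vesicle (the oocyte nucleus). Strontium makes an egg leave its arrest without sperm. The last group was 29 wildtype eggs with no activation. All females were C57BL/6J of 2 to 3 months and had received 5 IU of PMSG, a hormone that stimulates follicles, 48 h before collection. All oocytes had been held in 2.5 µM milrinone, which keeps the germinal vesicle intact, were matured in CZB and were collected 38 to 40 h after its breakdown.

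No label ties an egg to an animal, and an egg is a single cell, so eggs are not replicates. Counts were summed over the eggs of each group in each of 2 sequencing batches, which gave 9 sums, since activated eggs were in batch 2 only. Batch 1 held 4 M1, 2 M2, 3 M3 and 5 wildtype eggs. Batch 2 held 18 M1, 16 M2, 18 M3, 17 activated and 24 wildtype eggs. In batch 2 the activated eggs filled a plate of their own and so did the wildtype eggs, so plate and group cannot be told apart there. The deposited egg table splits batch 1 into 2 plates, with all wildtype eggs on 1 and most mutant eggs on the other. Plate and group are thus largely confounded in batch 1 as well. Totals per sum ran from 5436993 counts in wildtype eggs of batch 2 to 36209306 counts in wildtype eggs of batch 1. The median egg of batch 2 held 605366 counts in mutants, 796582 counts in activated eggs and 207420 counts in wildtype eggs. All intervals below are 95% Poisson or Clopper-Pearson intervals. Those of levels and ratios cover the counting of reads only, and the reads carry no molecular tags. Those of shares of eggs treat each egg as a draw, so they cover no spread between animals or plates.

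Mos itself was lower in the mutant sums than in the wildtype sum of the same batch, but not absent. In batch 1 it stood at 5.72, 0.868 and 1.45 CPM (counts scaled to the same total in each library) in M1, M2 and M3, against 6.52 CPM in wildtype. In batch 2 it stood at 13.3, 8.15 and 3.67 CPM in M1, M2 and M3 and at 5.33 CPM in activated eggs, against 31.6 CPM in wildtype eggs. The labels do not say which part of the gene the mutation removes. The library labelled M1 egg 6 carried 110 of the 150 Mos counts of the M1 sum in batch 1. That egg had 17.9 CPM of Mos, where no wildtype egg of batch 1 passed 11.2 CPM, so values are also given without it. In batch 2, M1 egg 21 carried 92 of the 137 Mos counts of M1, at 135.2 CPM and with 0 Fxr2 reads, and without it M1 had 4.67 CPM of Mos. The highest wildtype egg of batch 2 had 267 CPM of Mos. M1 egg 21 had reads of 4547 genes in 680555 counts, where M1 egg 20 on its plate had reads of 9555 genes in 678466 counts. All 10 listed oocyte markers had reads in each of the 9 sums.

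Before the levels, a stretch of coding sequence shows how far the 3 mRNAs can be told apart by short reads. Capitals mark the 16 of 60 bases that are not the same in all 3 genes, and the letters are from GRCm38 on the plus strand.
Fmr1, chrX:68695489-68695548: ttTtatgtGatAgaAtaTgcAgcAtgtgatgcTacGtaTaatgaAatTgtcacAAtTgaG
Fxr1, chr3:34046437-34046496: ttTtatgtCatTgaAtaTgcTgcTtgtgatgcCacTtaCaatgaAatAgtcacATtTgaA
Fxr2, chr11:69641441-69641500: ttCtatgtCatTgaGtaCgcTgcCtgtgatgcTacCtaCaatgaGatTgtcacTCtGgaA
The window starts at coding position 271 in Fmr1 and Fxr1 and at coding position 301 in Fxr2. It was picked as the most alike stretch, and most capitals fall on the last base of a codon. Over the whole aligned coding sequence Fxr1 and Fxr2 shared 69.0% of bases, Fmr1 and Fxr1 shared 66.02%, and Fmr1 and Fxr2 shared 65.7%. The longest run shared exactly by any annotated transcripts was 20 bases for Fxr1 with Fxr2 and for Fmr1 with Fxr2, and 16 bases for Fmr1 with Fxr1.

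The genes lie on different chromosomes of GRCm38. Fmr1 spans chrX:68678541-68717963, Fxr1 spans chr3:34019943-34070322 and Fxr2 spans chr11:69632990-69653297, each on the plus strand with 17 exons in the transcript with the longest coding part. Fxr2 has a single annotated coding transcript, against 6 each for Fmr1 and Fxr1. Its coding sequence was 55.5% G and C, against 43.7% in Fmr1 and 43.97% in Fxr1.

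Fxr2, whose protein binds FMRP and FXR1P, was the member with the large difference between groups. In batch 1 its level was 27.5 CPM in M1 (720 counts), 25.7 CPM in M2 (414 counts) and 16.6 CPM in M3 (343 counts), against 1.82 CPM in wildtype (66 counts). In batch 2 it was 36.2 CPM in M1 (373 counts), 21.3 CPM in M2 (222 counts), 16.7 CPM in M3 (219 counts) and 19.98 CPM in activated eggs (270 counts), against 0.552 CPM in wildtype eggs (3 counts). All 6 mutant sums and the activated sum stood above both wildtype sums, and the lowest of the 7 was M3 of batch 1. How many of all genes split the sums in this way was not counted. The ratio of all mutant eggs to wildtype eggs was 12.9 in batch 1 (10.0 to 16.7). In batch 2 it was 43.6 (14.9 to 212), and activated eggs stood at 36.2 times the wildtype level (12.3 to 177). The wide upper limits come from the 3 wildtype counts of batch 2, where 131 counts would have been found at the mutant level.

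**Figure D1:**
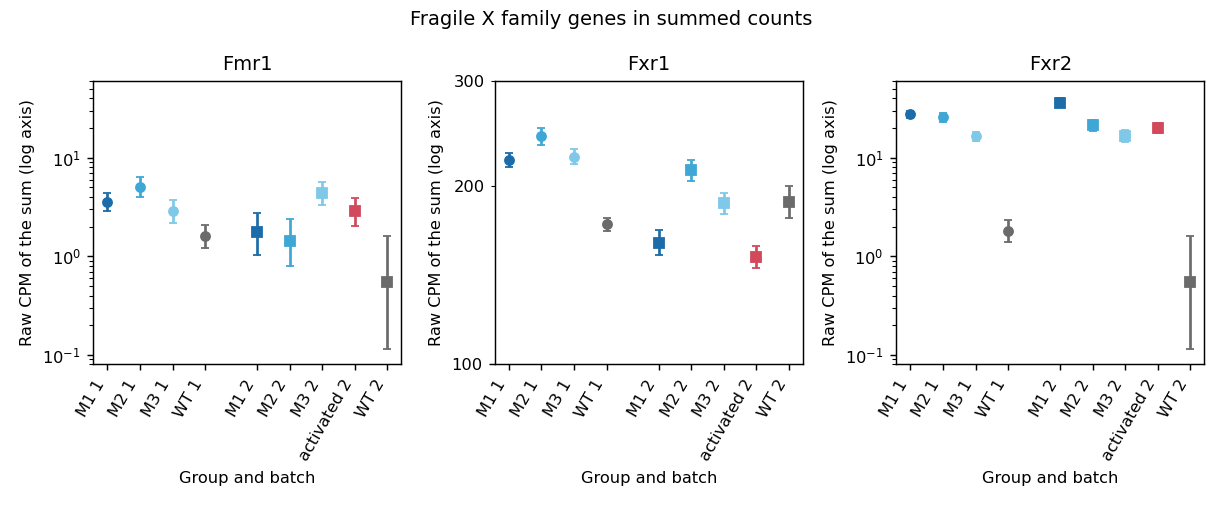
CPM of Fmr1, Fxr1 and Fxr2 in each of the 9 sums on log axes, by batch, with bars for the 95% Poisson interval of the sum's count. The mutant and activated sums of Fxr2 lie between 16.6 and 36.2 CPM, above both wildtype sums at 1.82 and 0.552 CPM, while the Fxr1 sums of all groups lie between 152 and 242 CPM.

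Single eggs of batch 1, which were sequenced most deeply, showed the same split for Fxr2. The 4 M1 eggs had 41.3, 10.3, 20.6 and 41.6 CPM, the M2 eggs had 28.9 and 22.5 CPM and the M3 eggs had 23.9, 14.5 and 12.7 CPM, against 3.07, 1.30, 2.17, 1.72 and 1.75 CPM in the wildtype eggs. The mutant and wildtype eggs of this batch did not overlap. Fxr2 was chosen for this contrast, and how many of all genes split the eggs so was not counted. The deposited egg table splits batch 1 into 2 plates, and on the plate that holds the 5 wildtype eggs the only mutant eggs, 1 of M1 and 1 of M3, had 41.3 and 23.9 CPM. Without the library labelled M1 egg 6, the M1 sum of batch 1 had 23.2 CPM of Fxr2, which is 12.7 times the wildtype level.

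In batch 2 the lowest, median and highest egg had 0, 27.2 and 136 CPM of Fxr2 in M1, 0, 18.6 and 73.9 CPM in M2 and 0, 9.28 and 42.6 CPM in M3. The same values were 7.53, 17.8 and 47.5 CPM in activated eggs, against 0, 0 and 15.0 CPM in wildtype eggs. The groups overlapped here, since several mutant eggs had no read and the highest wildtype value, 15.0 CPM, was 1 read in an egg of 66826 counts. In all, 10 M1, 10 M2, 7 M3 and 10 activated eggs stood above that value.

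At least 1 Fxr2 read was found in 44 of 52 mutant eggs of batch 2 (84.6%, 71.9 to 93.1) and in 17 of 17 activated eggs, against 2 of 24 wildtype eggs (8.33%, 1.03 to 26.997). The 3 mutant eggs with the fewest counts (44, 582 and 1526) had no read of any of the 3 genes. After each egg of batch 2 had been thinned to 60000 counts, a read remained in 29 of 49 mutant eggs (59.2%) and in 12 of 17 activated eggs (70.6%), against 1 of 24 wildtype eggs (4.17%). Depth thus changed the shares in mutant and activated eggs, and wildtype eggs remained the lowest of the groups at equal depth.

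**Figure D2:**
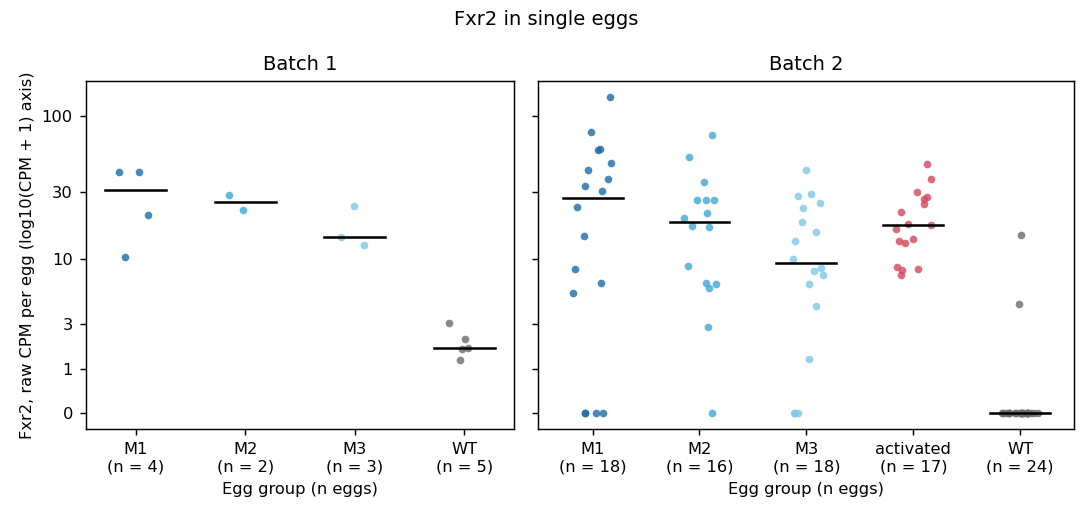
Fxr2 CPM of each egg (points, on a log10(CPM + 1) axis) by group and batch, with a line at the group's median. Batch 1 mutant eggs lie between 10.3 and 41.6 CPM, above all wildtype eggs of that batch at 1.30 to 3.07 CPM, and 2 of 24 wildtype eggs of batch 2 have any read.

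Fitted over all sums with a term for batch, the log2 fold of Fxr2 was 3.88 ± 0.45 (SE) in mutant over wildtype and 3.72 ± 0.56 in activated over wildtype, on edgeR's scale. Both contrasts use the same wildtype sums and both served to choose the gene. By size of fold Fxr2 was number 282 and number 875 of 13832 genes. Without the batch 1 wildtype sum these folds were 5.08 and 4.83, and without the batch 2 wildtype sum they were 3.48 and 3.20. In 9 wildtype eggs of batch 2 more than 35% of counts fell in 50 genes, and none of the 9 had an Fxr2 read. Against the other 15 eggs the ratio in batch 2 was 31.6 (10.8 to 154) for mutant eggs and 26.2 (8.88 to 128) for activated eggs.

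Markers of other ovarian cells were measured beside these values. The 14 granulosa and cumulus genes summed to between 205 and 306 CPM in the mutant sums and to 93.2 CPM in activated eggs, against 294 and 276 CPM in the wildtype sums, with 6 to 10 of the 14 detected in a sum. Most of that was Serpine2, and Ptx3 was at 0 in all 9 sums. The 8 theca and stroma genes summed to between 1.67 and 20.7 CPM in the mutant sums and to 4.37 CPM in activated eggs, against 1.63 and 1.10 CPM in the wildtype sums, with Lum at 0 throughout. The 7 blood and endothelium genes summed to between 42.9 and 142.3 CPM in the mutant sums and to 122.5 CPM in activated eggs, against 76.8 and 90.3 CPM in the wildtype sums, with Ptprc and Hba-a1 at 0 throughout. The part of such RNA in the Fxr2 values was not tested.

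Fxr1, whose protein is known for its need in muscle, was the abundant member in every group. In batch 1 its level was 221 CPM in M1, 242 CPM in M2 and 224 CPM in M3, against 172 CPM in wildtype. In batch 2 it was 160 CPM in M1, 212 CPM in M2, 187 CPM in M3 and 152 CPM in activated eggs, against 188 CPM in wildtype eggs. In raw CPM the mutant sums were all above wildtype in batch 1 and lay on either side of it in batch 2. Scaling by TMM, edgeR's normalization for library makeup and the scale of the fits, changed this for batch 2. There M1, M2 and M3 had 151, 198 and 173 TMM-scaled CPM, all below wildtype at 218. The ratio of mutant to wildtype eggs was 1.32 in batch 1 (1.28 to 1.36) and 0.995 in batch 2 (0.931 to 1.06), and activated eggs had a ratio of 0.808 (0.749 to 0.872). The fitted log2 folds were -0.05 ± 0.19 in mutant and -0.43 ± 0.30 in activated over wildtype. Every egg but the 3 shallowest had Fxr1 reads.

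In the M2 sum of batch 2, 19.4% of the Fxr1 counts came from M2 egg 14, whose level was 1167 CPM. Without it that sum had 177.3 CPM of Fxr1, and all 3 mutant sums of batch 2 then lay below wildtype in raw CPM too. M2 egg 14 had reads of 2807 genes in 367681 counts, where M2 egg 11 on its plate had reads of 8725 genes in 351593 counts. Fxr1 shares 178 exonic bases with Dnajc19, a gene on the other strand whose protein is mitochondrial. These libraries do not mark strand, so reads there cannot be assigned. Dnajc19 itself stood between 29.6 and 36.2 CPM in the mutant sums and at 20.3 CPM in activated eggs, against 21.3 and 32.6 CPM in the wildtype sums. Its log2 folds, 0.07 ± 0.28 in mutant and -0.69 ± 0.44 in activated over wildtype, did not pass the test.

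Fmr1 was the scarce member, with 3 to 93 counts per sum. In batch 1 its level was 3.55 CPM in M1, 5.08 CPM in M2 and 2.86 CPM in M3, against 1.60 CPM in wildtype. In batch 2 it was 1.74 CPM in M1, 1.44 CPM in M2, 4.36 CPM in M3 and 2.89 CPM in activated eggs, against 0.552 CPM (3 counts) in wildtype eggs. Each mutant sum and the activated sum lay above the wildtype sum of its batch, although M1 and M2 of batch 2 lay near or below the wildtype level of batch 1. Single eggs carried much of these sums: without M2 egg 6, which held 10 of its 15 counts, M2 of batch 2 had 0.551 CPM and no longer stood above wildtype. Without M2 egg 2 the M2 sum of batch 1 had 2.64 CPM, and without M3 egg 8 the M3 sum of batch 2 had 2.86 CPM. The ratio of mutant to wildtype eggs was 2.32 in batch 1 (1.73 to 3.15) and 4.82 in batch 2 (1.60 to 23.8), and activated eggs stood at 5.23 times wildtype (1.66 to 26.5). Fitted log2 folds were 1.36 ± 0.74 in mutant and 1.69 ± 1.06 in activated over wildtype.

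Among single eggs, 7 of 9 mutant eggs of batch 1 had more Fmr1 than the highest wildtype egg at 2.24 CPM. How many of all genes show as many mutant eggs above wildtype was not counted. On the plate with the wildtype eggs, M1 egg 6 had 7.47 CPM and M3 egg 1 had 2.32 CPM. In batch 2 a read was found in 6 of 18 M1, 5 of 16 M2, 11 of 18 M3 and 10 of 17 activated eggs, against 3 of 24 wildtype eggs. Without M1 egg 6 the M1 sum of batch 1 stood at 2.34 CPM of Fmr1, 1.46 times wildtype, where all 4 eggs gave a ratio of 2.22.

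Compared between genes, levels need a length, and the union of annotated exons was used (8966 bases for Fmr1, 6553 for Fxr1 and 3766 for Fxr2). On the scale of CPM per kilobase, Fxr1 had 23.1 to 36.9 over all 9 sums. Fxr2 had 4.41 to 9.60 in the mutant sums and 5.31 in activated eggs, against 0.484 and 0.147 in the wildtype sums. Fmr1 had 0.160 to 0.567 in the mutant sums and 0.322 in activated eggs, against 0.179 and 0.0615 in the wildtype sums. The order was Fxr1, Fxr2, Fmr1 in each of the 9 sums, and dividing by the length of 1 transcript per gene gave the same order.

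As a share of the family per kilobase, Fxr2 made up 17.6% in M1, 15.4% in M2 and 11.3% in M3 of batch 1, against 1.80% in wildtype. In batch 2 it made up 28.01%, 14.8% and 13.3% in M1, M2 and M3 and 18.4% in activated eggs, against 0.508% in wildtype eggs. Among the 13196 tested genes with an annotated exon length, the Fxr2 level per kilobase ranked between percentile 58.5 and 71.2 in the mutant sums and at 62.7 in activated eggs, against 32.8 and 21.3 in the wildtype sums. Fxr1 ranked between 85.6 and 90.6, and Fmr1 between 16.4 and 32.7, over all 9 sums.

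**Figure D3:**
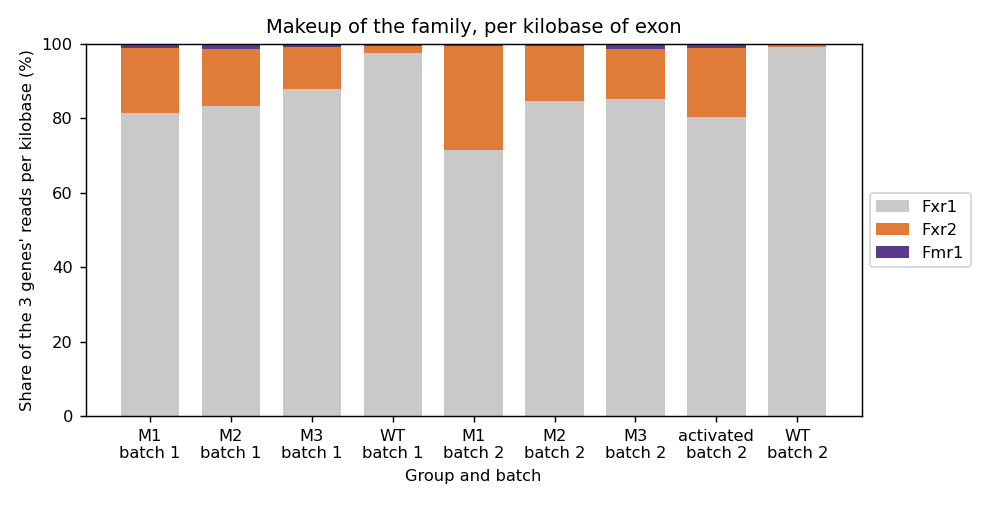
Share of the family's CPM per kilobase held by Fmr1, Fxr1 and Fxr2 in each of the 9 sums, as stacked bars by batch. Fxr2 holds 11.3% to 28.01% in the mutant sums and 18.4% in activated eggs, against 1.80% and 0.508% in the wildtype sums, and Fxr1 holds most of the rest everywhere.

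Mutant and activated eggs were next set against each other. Fxr2 was chosen for being high in both, so its value here is a description: the log2 fold was 0.16 ± 0.46 in mutant over activated eggs, and -0.0065 without M1 egg 11. Of 13832 genes, 670 (4.84%) passed an adjusted p under 0.05 in edgeR's quasi-likelihood test, and neither Fxr1 nor Fmr1 did. Fxr1 had a log2 fold of 0.38 ± 0.28 (adjusted p = 0.533) and Fmr1 of -0.33 ± 0.89 (adjusted p = 0.907). Within batch 2, Fxr2 levels of M1 (36.2 CPM) and M2 (21.3 CPM) lay above that of activated eggs (19.98 CPM), and that of M3 (16.7 CPM) lay below it. All activated eggs were on 1 plate of 1 batch, so their own spread between sums was not measured.

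The deposited egg table gives each egg a growths number, which neither it nor the labels define. The number was 1 in all M1 and wildtype eggs, 2 in all M2 eggs and 3 in all M3 eggs. Of the activated eggs, 8 had growths 1 and 9 had growths 2. Fxr2 stood at 19.5 CPM in growths 2 and 20.5 CPM in growths 1, a ratio of 0.952 (0.744 to 1.22). Fxr1 stood at 140 CPM in growths 2 and 166 CPM in growths 1, a ratio of 0.844 (0.773 to 0.921). Fmr1 stood at 3.39 CPM in growths 2 and 2.28 CPM in growths 1, a ratio of 1.49 (0.744 to 3.10). Only the interval of Fxr1 left out a ratio of 1, and it covers counting error alone.

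The 3 mutant groups were compared within plates, over 9 sums. Scaled by TMM, edgeR's normalization for library makeup, Fxr2 had 26.8, 81.97 and 23.1 CPM in M1 on the batch 1 plates and on Plate1 and Plate2 of batch 2. In M2 it had 26.5, 17.2 and 25.7 CPM and in M3 18.2, 22.3 and 11.4 CPM, in the same order of plates. M3 was the lowest group in batch 1 and on Plate2, and M1 on Plate1 stood far above the rest. The log2 fold of M3 over M1 was -1.21 ± 0.43, with an unadjusted p of 0.0148 and an adjusted p of 0.554 in edgeR (0.0793 to 0.998 over the alternatives), so it did not pass. That of M2 over M1 was -0.67 ± 0.44 (adjusted p = 0.843) and that of M3 over M2 was -0.54 ± 0.43 (adjusted p = 1.00). The last was -0.13 ± 0.48 without M2 on Plate2, -1.02 ± 0.39 without M2 on Plate1 and -1.35 ± 0.66 with thinned eggs. M2 over M1 ran from -1.08 without M2 on Plate2 to -0.12 without M2 or M1 on Plate1, and none of these values passed after adjustment.

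A single egg carried much of the M1 level. M1 egg 11 had 136 CPM of Fxr2 in 134 counts, 72.04% of the Fxr2 counts of M1 on Plate1 and 35.9% of those of M1 in batch 2. Without it, M1 had 35.02 CPM of Fxr2 on Plate1 and 25.6 CPM in batch 2, and the log2 folds became -0.73 ± 0.34 in M3 over M1 and -0.25 ± 0.34 in M2 over M1. Without the whole M1 sum of Plate1 the fold of M3 over M1 was -0.56 ± 0.37. M1 egg 11 had reads of 5779 genes in 988791 counts, where M1 egg 10 on Plate1 had reads of 9524 genes in 842710 counts. The part of library quality in its Fxr2 value was not tested.

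Fxr1 and Fmr1 did not pass in any of these contrasts. Fxr1 had log2 folds of 0.25 ± 0.19 in M2 over M1 (adjusted p = 0.874) and 0.10 ± 0.19 in M3 over M1 (adjusted p = 0.909). Fmr1 had log2 folds of -0.13 ± 0.78 in M2 over M1 (adjusted p = 0.986) and 0.80 ± 0.78 in M3 over M1 (adjusted p = 0.812). Few genes of any kind passed: of 11609 tested, edgeR called 0 (0%) in M2 over M1, 6 (0.0517%) in M3 over M1 and 0 (0%) in M3 over M2. At an unadjusted p under 0.05 there were 718 in M2 over M1 and 334 in M3 over M2, and DESeq2 called 28 and 2.

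Whether the mutant fold differed between batches was tested as an interaction over 8 sums. Fxr2 was chosen by these same folds, so its value is a description. Its log2 fold in batch 2 was larger than that in batch 1 by 1.65 ± 0.99, with 3 wildtype counts in batch 2. For Fxr1 the log2 difference, batch 2 minus batch 1, was -0.58 ± 0.33 (adjusted p = 0.680), and for Fmr1 it was 0.77 ± 1.33 (adjusted p = 0.932). Neither Fxr1 nor Fmr1 passed, and edgeR called 0 of 13566 genes (0%), with 1149 at an unadjusted p under 0.05 and 112 called by DESeq2.

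**Figure D4:**
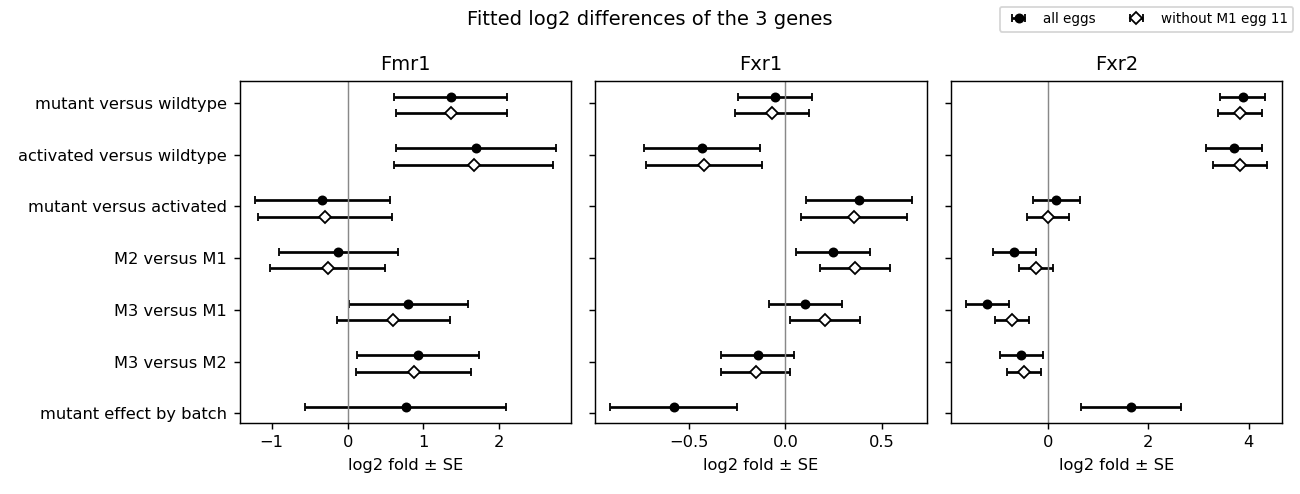
Fitted log2 differences of Fmr1, Fxr1 and Fxr2 in 7 contrasts (points) with bars of 1 SE, from all eggs (filled) and without M1 egg 11 (open). Fxr2 lies near 3.88 and 3.72 over wildtype and near 0.16 between mutant and activated eggs, and its M3 over M1 value moves to -0.73 without that egg.

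The 3' ends of the mRNAs differ in kind. In maturing oocytes a cytoplasmic polyadenylation element (CPE, here the letters TTTTAT or TTTTAAT) near the AATAAA signal marks mRNAs whose tails are lengthened. Searched on the transcript strand, the 3' UTR of 2288 bases in Fmr1 held 4 CPEs, while the 598 bases of Fxr2 held 0 and the 255 bases of the Fxr1 transcript with the longest coding part held 0. A longer annotated Fxr1 3' UTR of 1389 bases held 1. Of the 12934 tested genes with an annotated 3' UTR, 58.5% held at least 1. The last Fmr1 CPE and the only Fxr2 AATAAA, in capitals, are shown since they lie closest to the ends.
Fmr1, chrX:68717917-68717946: ctagatgtaaatTTTTATtaaaaagttgca
Fxr2, chr11:69653266-69653295: atttaaaaagagAATAAAaaaatccaaatg
The Fmr1 CPE lay 29 bases from the annotated end, and an AATAAA lay 514 bases from it, close to another CPE at 571 bases. The Fxr2 AATAAA lay 14 bases from the end. Among the 12282 tested genes with a 3' UTR of at least 100 bases, 65.7% held that signal in their last 100 bases. A CPE lay there in 19.1%. Fmr1 also held the letters TGTAGATA and TGTACATA, which are forms of the Pumilio motif, present in 24.2% of the 12934 genes.

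By base makeup, the 3' UTR of Fxr2 was 56.2% G and C, at percentile 94.6 of genes, against 31.2% in Fmr1 (percentile 3.83) and 36.5% in Fxr1 (percentile 15.7). The median gene had 44.5%. The RefSeq promoters (GRCm38.p6, 250 bases before to 50 after the start) were all rich in G and C, with 71.3% in Fxr2, 76.3% in Fxr1 and 65.7% and 67% in the 2 Fmr1 entries, against a median of 52.7% over 32851 promoters. None of them held CCAAT on either strand, which 37.4% of promoters did, and all held GGGCGG, which 35.7% did. These are matches of letters and no more.

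Neighbours of Fxr2 and Fmr1 were scarce in these eggs. Sox15, a transcription factor gene 2017 bases from Fxr2, had 0.581 to 5.18 CPM in the mutant sums and 7.40 CPM in activated eggs, against 1.93 and 0.552 CPM in the wildtype sums. Its log2 folds over wildtype, 0.42 ± 0.76 in mutant and 1.48 ± 1.13 in activated eggs, did not pass. Sat2 had at most 0.872 CPM in any sum and was not tested. Fmr1nb, 43876 bases from Fmr1, had log2 folds of -0.84 ± 0.64 in mutant and -0.60 ± 1.06 in activated over wildtype and did not pass.

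Across the 9 sums, genes whose TMM-scaled log2 CPM followed Fxr2 most closely among 6034 genes included Prkag1, with a Pearson r of 0.982, Tbc1d10b (0.976) and Ddx41 (0.975). The nearest to Fmr1 were Pigu (0.959), Eef1b2 (0.933) and Dnajc8 (0.925), and the nearest to Fxr1 were Inip (0.978), Lrrcc1 (0.965) and Baiap2l1 (0.948). Between members r was 0.674 for Fmr1 with Fxr2, 0.106 for Fmr1 with Fxr1 and -0.205 for Fxr1 with Fxr2. The sums share batches and depths, so these are descriptions.

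Lists of related genes, drawn up with earlier results of these eggs known, were then counted. Mutant and activated eggs share the same wildtype sums in these counts. The genes named below were picked by their p-values, so a lack of overlap between their sums is a description. How many of all genes lack overlap in this way was not counted. Of 13832 genes, 1298 (9.38%) passed in mutant over wildtype eggs and 1797 (13%) passed in activated over wildtype eggs, with median log2 folds over all genes of 0.06 and 0.15. In mutant over activated eggs the median over all genes was -0.05.

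Among 25 tested protein partners of the family, which include stress granule and small RNA proteins, 2 rose and 4 fell in mutant over wildtype eggs, with a median log2 fold of -0.16. In activated over wildtype eggs 4 rose and 3 fell, with a median of -0.19, and in mutant over activated eggs 3 rose and 0 fell, with a median of 0.03. Tdrd3, a scaffold that binds the family together with the topoisomerase Top3b, had 54.2, 52.0 and 85.1 TMM-scaled CPM in M1, M2 and M3 of batch 1, against 29.7 in wildtype. Batch 2 gave 41.9, 56.6 and 62.8 in M1, M2 and M3 and 105 in activated eggs, against 22.7 in wildtype eggs. No mutant or activated sum overlapped the wildtype sums. Its log2 fold was 1.14 ± 0.24 in mutant eggs (adjusted p = 0.00649) and 2.14 ± 0.34 in activated eggs (adjusted p = 0.000505).

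Smn1, the spinal muscular atrophy gene whose protein binds FMRP, had 202, 130 and 126.9 TMM-scaled CPM in M1, M2 and M3 of batch 1, against 223 in wildtype. The values of batch 2 were 116.9, 107.7 and 94.03 in M1, M2 and M3 and 36.3 in activated eggs, against 227 in wildtype eggs. It was below wildtype in every mutant sum and lowest in activated eggs. The log2 fold was -0.84 ± 0.19 in mutant eggs (adjusted p = 0.0105), -2.46 ± 0.35 in activated eggs (adjusted p = 0.000182) and 1.62 ± 0.32 in mutant over activated eggs (adjusted p = 0.00538). Ago2, the slicing Argonaute, fell in mutant eggs (log2 fold -1.01 ± 0.23, adjusted p = 0.00969). Without the wildtype sum of batch 2 the mutant values of Smn1 and Ago2 were -0.57 (adjusted p = 0.213) and -0.49 (adjusted p = 0.361). Usp10, whose protein binds the G3BP proteins of stress granules, fell in activated eggs (-1.83 ± 0.31, adjusted p = 0.000825) and was higher in mutant than in activated eggs (1.32 ± 0.28, adjusted p = 0.0111). The double-stranded RNA binder Stau1 was higher in mutant than in activated eggs (1.35 ± 0.25, adjusted p = 0.00409).

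Of 30 other KH domain genes tested, 1 rose and 1 fell in mutant over wildtype eggs, with a median log2 fold of 0.06. In activated over wildtype eggs 3 rose and 4 fell, with a median of -0.03, or -0.10 with genes at 0 in 1 group set to their bound or left out. Igf2bp2, which stabilises mRNAs in oocytes and early embryos, had 561, 835 and 799 TMM-scaled CPM in M1, M2 and M3 of batch 1, against 599 in wildtype. Batch 2 values were 490, 529 and 414 in M1, M2 and M3 and 127.1 in activated eggs, against 522 in wildtype eggs. The activated sum was the lowest of the 9. Its log2 fold was -1.89 ± 0.32 in activated over wildtype eggs (adjusted p = 0.000704) and 1.96 ± 0.30 in mutant over activated eggs (adjusted p = 0.000949). Hdlbp, the vigilin gene, rose in activated eggs (1.23 ± 0.27, adjusted p = 0.00502). The splicing factor gene Sf1 fell in activated eggs (-2.28 ± 0.44, adjusted p = 0.00369) and in mutant eggs (-1.04 ± 0.25, adjusted p = 0.0186). The mutant value of Sf1 was -0.37 (adjusted p = 0.518) without the wildtype sum of batch 2 and -1.02 (adjusted p = 0.0731) without M1 of batch 1. Akap1, which anchors RNA at mitochondria, rose in mutant eggs (0.67 ± 0.19, adjusted p = 0.0347), a call that 13 of 19 alternatives ended. In mutant over activated eggs 2 of 30 rose, Igf2bp2 and Hnrnpk (1.37 ± 0.28, adjusted p = 0.00876), and 0 fell, with a median of 0.30.

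Kinases, phosphatases and ubiquitin ligase activators that act on FMRP or FXR1P were counted in the same way. Of 14 tested, 0 rose and 1 fell in mutant over wildtype eggs (median -0.24), 1 rose and 1 fell in activated over wildtype eggs (median 0.08) and 0 passed in mutant over activated eggs (median -0.16). Ppp2r1a, the scaffold subunit of protein phosphatase 2A, fell in mutant eggs (log2 fold -0.63 ± 0.17, adjusted p = 0.0263) and in activated eggs (-1.24 ± 0.29, adjusted p = 0.00808). The mutant call was lost when the M1 or the M2 sum of batch 1 or either wildtype sum was left out (adjusted p = 0.0511 to 0.12). The kinase gene Pak1 rose in activated eggs (1.11 ± 0.29, adjusted p = 0.0161), with an adjusted p of 0.0506 without M2 of batch 1 and 0.0505 without M2 of batch 2.

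Of 28 tested mRNAs that FMRP is known to bind in brain, 1 rose and 3 fell in mutant over wildtype eggs (median -0.13), 2 rose and 2 fell in activated over wildtype eggs (median 0.09, or 0.08 at bounds) and 0 rose and 1 fell in mutant over activated eggs (median -0.12). Tsc2, a brake on mTOR signalling, had 105, 85.6 and 132.8 TMM-scaled CPM in M1, M2 and M3 of batch 1, against 49.9 in wildtype. For batch 2 the values were 75.2, 104 and 112 in M1, M2 and M3 and 152 in activated eggs, against 51.1 in wildtype eggs. All mutant and activated sums stood above both wildtype sums. The log2 fold was 1.01 ± 0.23 in mutant eggs (adjusted p = 0.00917, and 0.0701 without the wildtype sum of batch 1) and 1.65 ± 0.32 in activated eggs (adjusted p = 0.0021). Mtor, the kinase itself, fell in mutant eggs (-1.09 ± 0.23, adjusted p = 0.0059) and in activated eggs (-1.46 ± 0.40, adjusted p = 0.0205). With eggs thinned to 60000 counts the activated value of Mtor was -0.97 (adjusted p = 0.121). Without the wildtype sum of batch 1 the mutant value of Mtor was -0.59 (adjusted p = 0.236). Ep400, a chromatin remodeller gene, fell in mutant eggs (-0.79 ± 0.18, adjusted p = 0.0093) and in activated eggs (-1.03 ± 0.30, adjusted p = 0.0281). Without the wildtype sum of batch 2 those values of Ep400 were -0.51 (adjusted p = 0.241) and -0.70 (adjusted p = 0.221), and without M1 of batch 1 its activated call had an adjusted p of 0.0506. The gene that fell in mutant over activated eggs was Sod1 (-1.05 ± 0.28, adjusted p = 0.0361), which lost its call in 8 of 18 alternatives.

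Among 17 tested m6A readers and other translation regulators, 0 rose and 1 fell in mutant over wildtype eggs (median -0.18), 0 rose and 3 fell in activated over wildtype eggs (median -0.01) and 1 rose and 0 fell in mutant over activated eggs (median -0.13). Lsm14b, whose protein sits in stored mRNA particles of oocytes, had 55.5, 35.2 and 42.4 TMM-scaled CPM in M1, M2 and M3 of batch 1, against 76.4 in wildtype. Those of batch 2 were 68.02, 63.0 and 53.7 in M1, M2 and M3 and 16.3 in activated eggs, against 110 in wildtype eggs. The mutant sums were below both wildtype sums and the activated sum was lower still. The log2 fold was -0.82 ± 0.21 in mutant eggs (adjusted p = 0.0205), -2.74 ± 0.39 in activated eggs (adjusted p = 0.000197) and 1.92 ± 0.35 in mutant over activated eggs (adjusted p = 0.00365). The mutant call of Lsm14b was lost without M2 of batch 1 or either wildtype sum (adjusted p = 0.0537 to 0.115) and with thinned eggs (adjusted p = 0.0601). Hnrnpa2b1 and the m6A reader gene Ythdf2 fell in activated eggs (-1.13 ± 0.32, adjusted p = 0.0234, and -1.04 ± 0.32, adjusted p = 0.0378). Without the wildtype sum of batch 2 the adjusted p was 0.0791 for Hnrnpa2b1 and 0.0616 for Ythdf2, and without M1 of batch 1 it was 0.0527 for Ythdf2. With thinned eggs the value of Ythdf2 was -0.81 (adjusted p = 0.101).

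Across these lists, a fit with no term for batch ended the named calls other than those of Tdrd3 and Smn1 in activated eggs (adjusted p = 0.0523 to 0.574). Sums made per plate ended the mutant calls of Tdrd3, Ppp2r1a, Sf1, Akap1, Tsc2 and Lsm14b, the activated calls of Pak1, Sf1, Mtor, Ep400, Hnrnpa2b1 and Ythdf2, and the calls of Usp10 and Sod1 between mutant and activated eggs (adjusted p = 0.0524 to 0.161).

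**Figure D5:**
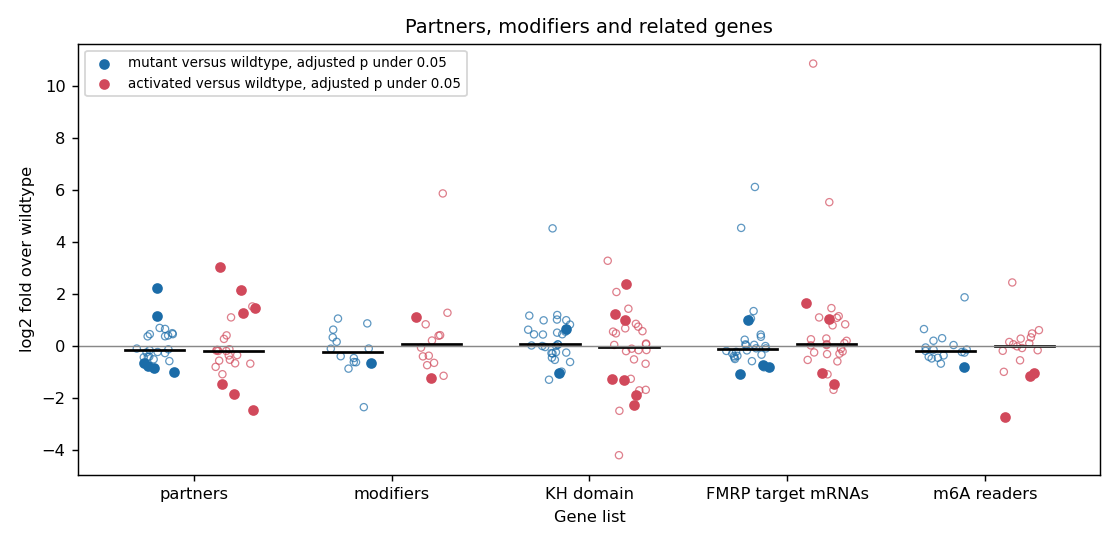
Fitted log2 folds over wildtype of the tested genes of 5 lists in mutant eggs (blue) and activated eggs (red), with filled points for genes that passed and black lines at the list medians. The medians lie between -0.24 and 0.09 and the genes that passed lie on both sides of 0 in most lists. Folds of genes at 0 in wildtype depend on edgeR's prior count.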

How the data were processed

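Smart-seq2, which primes on poly(A) tails, was sequenced as paired reads from libraries without strand marks, per the labels' protocols. The authors aligned with STAR, counted with HTSeq and used GRCm38 (mm10), per the submitters' processing notes, and deposited raw counts per gene symbol for 107 eggs. Near-identical copies and overlapping genes are uncertain in such counts. Plates were taken from the labels and the deposited egg table, and growths numbers from that table.

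Counts were summed over eggs per group and batch (9 sums) or, for the mutant groups, per plate (9 sums, with batch 1 taken as 1 plate). Genes passed edgeR's expression filter (minimum count 10). The sums were scaled by TMM and tested with edgeR 4.0.16 (R 4.3.3) by the robust quasi-likelihood F test, with group and batch or group and plate as terms. The fit for the difference between batches had mutant or wildtype, batch and their interaction as terms. Benjamini-Hochberg adjusted p-values cover all genes tested, with a threshold of 0.05. All groups shared 1 estimate of the spread. SE was taken as |log2 fold| over the root of F. The sums may share animals, so p-values measure only the spread between sums. The script was tested on simulated counts. DESeq2 1.42.0, RLE scaling, no filter, eggs thinned to 60000 counts, eggs of at least 10000 counts, no batch or plate term and left-out sums or eggs were alternatives. CPM without further mention is the raw, not TMM-scaled, value of a sum or egg.

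Members and lists were chosen with earlier results of these data known. From each list up to 3 called genes with the smallest p in each contrast with wildtype are named, and in mutant over activated eggs the called list genes. Genes most alike were taken among those of at least 4 log2 CPM. Some of the genes most like Fxr2 are not reported here. Gene models came from GENCODE M21 on GRCm38 and promoters from RefSeq.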

Additional observations from a re-analysis of the deposited data

Results flagged for a closer look

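In 24 combinations of 1 gene with a set of 4 to 10 eggs, a single egg stood far from the others in 8. Chance alone gives about 1 in 20 for a normal spread. A set held eggs of 1 group on 1 plate, with activated eggs split by growths number and batch 1 taken as 1 plate. The same eggs served for each gene, so the combinations are not independent. These sets hold eggs of unequal depth with few reads of Fmr1 and Fxr2, to which that share need not apply. For Fxr2, M2 egg 11 on Plate2 had 73.9 CPM in 26 reads, with the next egg at 26.7 CPM, and activated egg 14 had 47.5 CPM in 36 reads, with the next of its growths number at 26.8 CPM. For Fxr1, M2 egg 14 on Plate2 had 1167 CPM in 429 reads, with the next egg at 210 CPM, and M3 egg 6 on Plate1 was the lowest of its set at 154 CPM, with the next at 212 CPM. For Fmr1, M1 egg 14 on Plate1 had 60.05 CPM, which was 4 reads among 66611 counts, and M3 egg 8 on Plate1 had 42.9 CPM in 21 reads, with the next egg at 10.1 CPM. Also for Fmr1, M2 egg 6 on Plate1 had 7.36 CPM in 10 reads and M2 egg 18 on Plate2 had 3.97 CPM in 1 read.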

How the results depend on the processing

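No paired analysis was possible because the sums carry no replicate number that the groups share. Batch and plate, which groups do share, are terms of the fits, and fits without them are given below. The Fxr2 difference over wildtype kept its sign under each alternative run. The mutant fold was 2.37 when log2 CPM was averaged egg by egg in batch 2, where eggs with 0 reads score higher the shallower they are, and it ran from 3.48 to 5.08 with 1 sum left out. On that same mean scale the folds of Fmr1 turned round, to -0.57 in mutant and -0.43 in activated over wildtype. Fmr1 in mutant over wildtype was 2.48 with thinned eggs. Fxr1 in mutant over wildtype ran from -0.33 (without wildtype of batch 1) to 0.25 with 1 sum left out. Fxr1 in activated over wildtype was -0.56 with no batch term, -0.23 as the mean over eggs and -0.64 to -0.075 with 1 sum left out.

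Between mutant and activated eggs, Fxr2 turned to -0.0065 without M1 egg 11 and to -0.0089 without the top Fxr2 egg of each group, and ran from -0.14 to 0.28 with 1 sum left out. Fmr1 there turned to 0.21 with no batch term and ran from -0.98 to 0.0074. Between mutant groups, Fmr1 in M2 over M1 turned to 0.12 with no plate term and ran from -1.09 to 0.36, and Fxr1 in M3 over M2 ran from -0.25 to 0.0036. The causes were not tested. With thinned eggs 59.2% of mutant and 70.6% of activated eggs had an Fxr2 read.

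Counts of called genes moved more. In mutant over wildtype 51 passed with no batch term, 409 with sums per plate and 755 (without wildtype of batch 2) to 1262 with 1 sum left out, and M1 of batch 1 gave 782. In activated over wildtype 196 passed with no batch term and 666 with sums per plate. In mutant over activated 1099 passed with no filter, 1038 in DESeq2, 35 with no batch term, 161 with sums per plate, 419 without each group's top Fxr2 egg, and 380 (without M1 of batch 2) to 1119 (without wildtype of batch 2) with 1 sum left out, with 423 without M2 of batch 2 and 1078 without wildtype of batch 1. In M2 over M1 45 passed with no filter, 28 in DESeq2, 2 with thinned eggs and 0 to 3 with 1 sum left out. In M3 over M1 130 passed with no filter, 59 in DESeq2, 29 with thinned eggs, 0 with no plate term, 3 without M1 egg 11, 0 without each group's top egg and 0 to 11 (without M1 on Plate1) with 1 sum left out. In M3 over M2 44 passed with no filter, 2 in DESeq2, 2 with thinned eggs, 1 without M1 egg 11 and 0 to 2 with 1 sum left out. For the difference between batches 36 passed with no filter, 112 in DESeq2 and 0 to 9 (without M3 of batch 1) with 1 sum left out. The alternatives that left out single eggs by their Fxr2 reads were chosen after seeing the data. Leaving out the activated sum gave no value for contrasts with it. Wildtype of batch 2, the shallowest sum, limits every low count: 3 reads stand behind Fxr2 and behind Fmr1 there.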
